A study of Mus musculus with 112 samples.

Results

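The immunoproteasome and class I antigen presentation genes were followed in the white fat of calorie-restricted and control mice. The set held 10 genes: the immunoproteasome subunits Psmb8, Psmb9 and Psmb10, the peptide transporter chains Tap1 and Tap2, the loading factor Tapbp (tapasin), the class I light chain B2m, the class I heavy chains H2-K1 and H2-D1, and the class I transactivator Nlrc5. Members were measured on probe sets that carried only their own symbol, the brightest per gene, and 8 of the 10 had one among the 19938 genes of the table. H2-K1 and H2-D1 had none. Both are named together, with LOC547349, on 2 probe sets, which are given below as shared class I probe sets and as a level of neither gene. The constitutive catalytic subunits Psmb5, Psmb6 and Psmb7 were set beside the members.

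The 112 arrays (Affymetrix Mouse Gene 1.0 ST) each held RNA from the epididymal fat of a single male mouse, and each of 7 strains gave 8 controls and 8 calorie-restricted (CR) animals. The strains were 129S1/SvImJ, BALB/cJ (Balbc/J in the labels), C57BL/6J (C57BL6/J in the labels), C3H/HeJ, CBA/J, DBA/2J and the hybrid B6C3F1/J, a cross of C57BL/6J and C3H/HeJ. All mice were bought from 1 supplier, housed singly, fed the same purified diet before the study, kept on control or CR feeding from 8 to 22 weeks of age and fasted overnight before collection. Per the methods, CR rations were lowered further during the study in 129S1/SvImJ and C57BL/6J, and BALB/cJ mice of both arms had larger rations, so that BALB/cJ CR mice were offered what controls of the other strains were offered. The label of fat was borne out by the adipocyte genes Adipoq, at a mean of 12.76 over all arrays, and Plin1, at 12.78, where the median of all probe sets was 6.77. Levels are log2 RMA signals, so a difference of 1 is a doubling, and a level of 1 gene is not compared with that of another gene.

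The proteasome is a barrel of subunits that degrades tagged proteins, and its catalytic sites sit on Psmb6, Psmb7 and Psmb5. In cells of the immune system, or after interferon-gamma, these are replaced by Psmb9, Psmb10 and Psmb8, and the altered particle, the immunoproteasome, cuts proteins into peptides that fit class I molecules. Tap1 and Tap2 form a channel that carries the peptides into the endoplasmic reticulum, tapasin tethers empty class I molecules to that channel, and the loaded heavy chain leaves for the cell surface together with beta-2-microglobulin, the product of B2m. Nlrc5 acts on class I promoters. In fat, adipocytes, macrophages, endothelium and lymphocytes all carry class I molecules.

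Promoters are shown for 3 members as DNA context, since Psmb9 and Tap1 share theirs, Psmb8 lies in the same stretch of chromosome 17 and B2m lies apart, on chromosome 2. RefSeq windows (GRCm38.p6) that run from 250 bases before to 50 bases after the annotated start were at hand for 10 of the 13 genes, all but Tap2, Nlrc5 and Psmb7. Capitals mark matches, on either strand, to an interferon-stimulated response element (GAAA, any 2 bases, GAAA), a gamma-activated site (TTCNNNGAA), a kappa-B site (GGGA, any base, TTTCC) or the core of an X2 box (TGACG). The Tap1 window is chr17:34187306-34187605 on the plus strand. The Psmb9 start lies 226 bases away on the other strand, and the Psmb9 and Tap1 windows share 275 bases. The Psmb8 window is chr17:34197945-34198244 and the B2m window is chr2:122147437-122147736, both on the plus strand.
Tap1: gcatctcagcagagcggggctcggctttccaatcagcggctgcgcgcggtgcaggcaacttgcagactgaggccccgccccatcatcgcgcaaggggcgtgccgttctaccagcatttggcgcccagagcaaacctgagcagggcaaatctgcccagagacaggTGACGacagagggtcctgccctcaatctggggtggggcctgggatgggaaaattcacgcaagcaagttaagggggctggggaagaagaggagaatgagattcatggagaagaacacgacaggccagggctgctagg
Psmb8: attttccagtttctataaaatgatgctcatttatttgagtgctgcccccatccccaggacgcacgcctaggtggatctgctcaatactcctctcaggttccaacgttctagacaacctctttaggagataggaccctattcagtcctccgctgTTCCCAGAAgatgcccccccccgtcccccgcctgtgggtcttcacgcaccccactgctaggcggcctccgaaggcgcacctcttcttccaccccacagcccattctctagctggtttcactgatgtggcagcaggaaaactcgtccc
B2m: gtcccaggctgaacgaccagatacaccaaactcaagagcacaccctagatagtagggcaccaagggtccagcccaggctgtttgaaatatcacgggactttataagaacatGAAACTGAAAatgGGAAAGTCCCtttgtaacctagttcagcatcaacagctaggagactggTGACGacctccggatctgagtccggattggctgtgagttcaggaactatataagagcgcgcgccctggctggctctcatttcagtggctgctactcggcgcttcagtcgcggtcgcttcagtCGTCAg

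The B2m window held a response element from base -139, a kappa-B match from base -126 and 2 X2 cores. The Psmb8 window held a gamma-activated match from base -97 and none of the other letters. The window shared by Tap1 and Psmb9 held 1 X2 core, from base -86 of Tap1. Of all 32851 promoter windows of the table, 3.44% held the response element, 8.3% the gamma-activated site, 0.41% the kappa-B site and 20.81% the X2 core. The Psmb10 and Tapbp windows held none of the 4. No 2 matches overlapped in the windows shown. A match is a run of letters and not a measured site.

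Some arrays stood apart before any comparison. Epididymis markers were over 1 log2 unit above the strain median in 8 arrays, 2 of them C57BL/6J CR, 2 CBA/J CR, 2 DBA/2J control and 2 DBA/2J CR. The T cell markers of DBA/2J CR replicate 3 averaged 8.66, which was 2.27 above the median of its strain. It is called the array high in T cell markers below. Other immune markers were high in this group too. Its highest mouse was at 9.62 in B cell markers (group median 6.31) and its highest in dendritic cell markers at 7.54 (median 6.46). C57BL/6J CR replicate 2 was the lowest of its group in Psmb8, Psmb9, Psmb10, Tap1 and Tap2. Array medians lay between 6.72 and 6.86.

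Over the 7 strains, 6 of the 8 measured members were lower on CR and none was higher, at a limma adjusted p under 0.05, against 22% of all genes lower and 21.9% higher. The mean change was -0.20 ± 0.03 (SE) for Tapbp, -0.18 ± 0.04 for Psmb8, -0.15 ± 0.05 for Tap1, -0.15 ± 0.04 for Psmb10, -0.11 ± 0.02 for B2m and -0.09 ± 0.04 for Psmb9. Tap2, at 0.06 ± 0.03 (adjusted p = 0.078), and Nlrc5, at 0.00 ± 0.03 (adjusted p = 0.943), did not pass. Psmb5, Psmb6 and Psmb7 were all higher. The median change of the members was -0.13, and that of all genes was 0.01. Changes were small, with 12.8% less signal for Tapbp, 11.5% for Psmb8 and 7.32% for B2m. In whole fat, fewer cells of a type and less RNA per cell cannot be told apart.

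**Figure D1:**
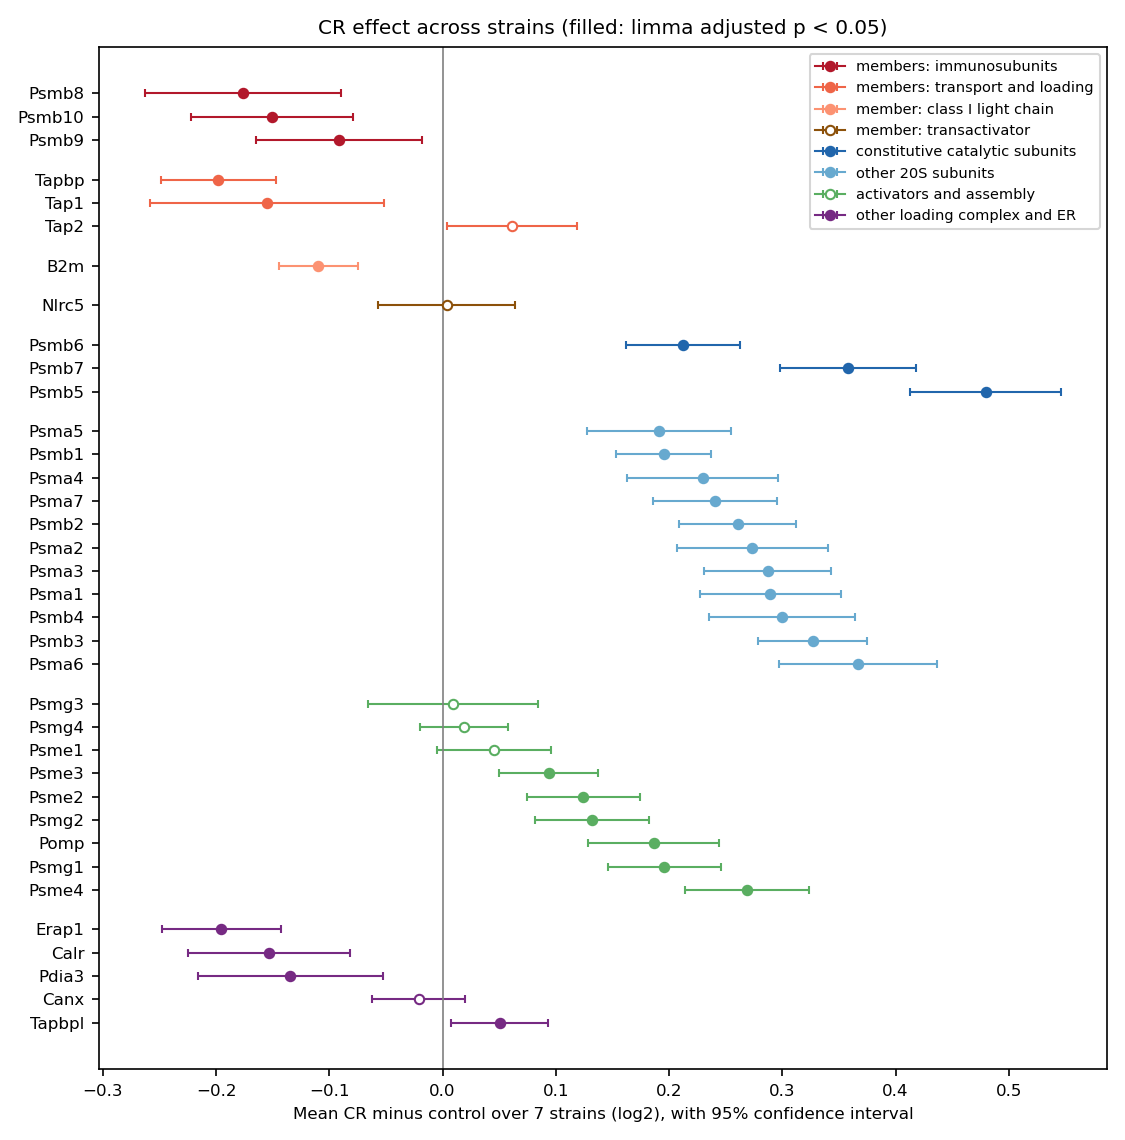
Mean difference between CR and control over the 7 strains (x axis, log2) for the members, the constitutive catalytic subunits, the remaining subunits of the 20S particle, the activators and assembly factors and the other loading factors (y axis, 1 gene per row). Points are limma estimates with 95% confidence intervals, filled where the adjusted p is under 0.05. The 3 immunosubunits lie left of 0, between -0.18 and -0.09, and every constitutive 20S subunit lies right of it, from 0.19 to 0.48.

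Psmb8 replaces Psmb5 in the immunoproteasome. In C57BL/6J the 8 control mice ran from 7.70 to 8.10 with a median of 7.99, and the 8 CR mice from 6.84 to 7.77 with a median of 7.52. In all, 7 of the 8 CR mice were below every control, and the change was -0.46 ± 0.11 (limma adjusted p = 0.0076). In B6C3F1/J controls ran from 7.52 to 7.86 (median 7.73) and CR mice from 7.32 to 7.69 (median 7.53), a change of -0.21 ± 0.06 (limma adjusted p = 0.0096). The groups overlapped, with 3 CR mice below every control. Psmb8 was negative in all 7 strains but passed in these 2 only, and ran from -0.04 ± 0.12 in CBA/J to -0.21 ± 0.06 in B6C3F1/J among the strains other than C57BL/6J. The CBA/J value rests on CR replicate 7, at 8.16 where the next was 7.59, and was -0.14 (limma adjusted p = 0.210) without it. In DBA/2J the change of -0.10 ± 0.13 rests on CR replicate 3, at 8.47 where the next was 7.67, and was -0.22 (limma adjusted p = 0.212) without it. Its mean change had an adjusted p of 0.00036 in limma. Without the 2 C57BL/6J CR mice high in epididymis markers, which include the lowest one, the C57BL/6J change was -0.36 (limma adjusted p = 0.0039).

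Psmb9 replaces Psmb6. It was lower in C57BL/6J, where controls ran from 8.63 to 8.95 (median 8.88) and CR mice from 8.19 to 8.75 (median 8.62), and in B6C3F1/J, where controls ran from 8.71 to 8.94 (median 8.78) and CR mice from 8.42 to 8.76 (median 8.59). The changes were -0.25 ± 0.08 (limma adjusted p = 0.044) and -0.23 ± 0.06 (limma adjusted p = 0.0047). In B6C3F1/J 6 of the 8 CR mice were below every control. In CBA/J and DBA/2J the change of Psmb9 was 0.01 in each, with SEs of 0.10 and 0.11, and 1 CR mouse set its sign in both. Without CR replicate 7 the CBA/J change was -0.08 (limma adjusted p = 0.507), and without CR replicate 3 the DBA/2J change was -0.09 (limma adjusted p = 0.524). Its change over strains (adjusted p = 0.035) no longer passed in 3 alternatives, namely quantile normalization (adjusted p = 0.075), centring on the array median (0.079) and leaving out the arrays high in epididymis markers (0.071).

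Psmb10 replaces Psmb7. It was lower in CBA/J, from 8.93 to 9.42 in controls (median 9.05) and from 8.40 to 8.95 in CR mice (median 8.90), a change of -0.30 ± 0.09 (limma adjusted p = 0.022), with 5 CR mice below every control. It was negative in each of the other strains, from -0.04 in C3H/HeJ to -0.23 in C57BL/6J, without passing there. Both ends rest on 1 CR mouse, since the change was -0.13 in C3H/HeJ without replicate 4 and -0.12 in C57BL/6J without replicate 2. Its mean change had an adjusted p of 0.00023.

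The constitutive subunits went the other way. Psmb5, which carries the chymotrypsin-like site, ran from 10.37 to 10.64 in C57BL/6J controls (median 10.52) and from 10.87 to 11.21 in CR mice (median 11.01), so the groups did not overlap. The change there was 0.52 ± 0.06 (limma adjusted p = 4.5e-05). The groups were also apart in 129S1/SvImJ, CBA/J and B6C3F1/J. Every CR mouse was above every control for 2.63% of genes in C57BL/6J, 3.42% in 129S1/SvImJ, 1.39% in CBA/J and 6.95% in B6C3F1/J. Psmb7 was apart in 129S1/SvImJ, B6C3F1/J and C3H/HeJ, the last against 1.85% of genes. Psmb5 was called higher in 6 of 7 strains, Psmb7 in 5 and Psmb6 in 4, where the share of genes called higher was 17.8% in B6C3F1/J, 16.8% in 129S1/SvImJ, 9.39% in C57BL/6J, 8.75% in C3H/HeJ, 8.68% in CBA/J and 0.492% in DBA/2J. None of them passed in BALB/cJ, where no gene of the 19938 did. Psmb7 was also called in DBA/2J without CR replicate 3 (0.30, limma adjusted p = 0.043), and Psmb6 in CBA/J without CR replicate 7 (0.26, limma adjusted p = 0.0052). Over the strains the change was 0.48 ± 0.03 for Psmb5, 0.36 ± 0.03 for Psmb7 and 0.21 ± 0.03 for Psmb6.

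**Figure D2:**
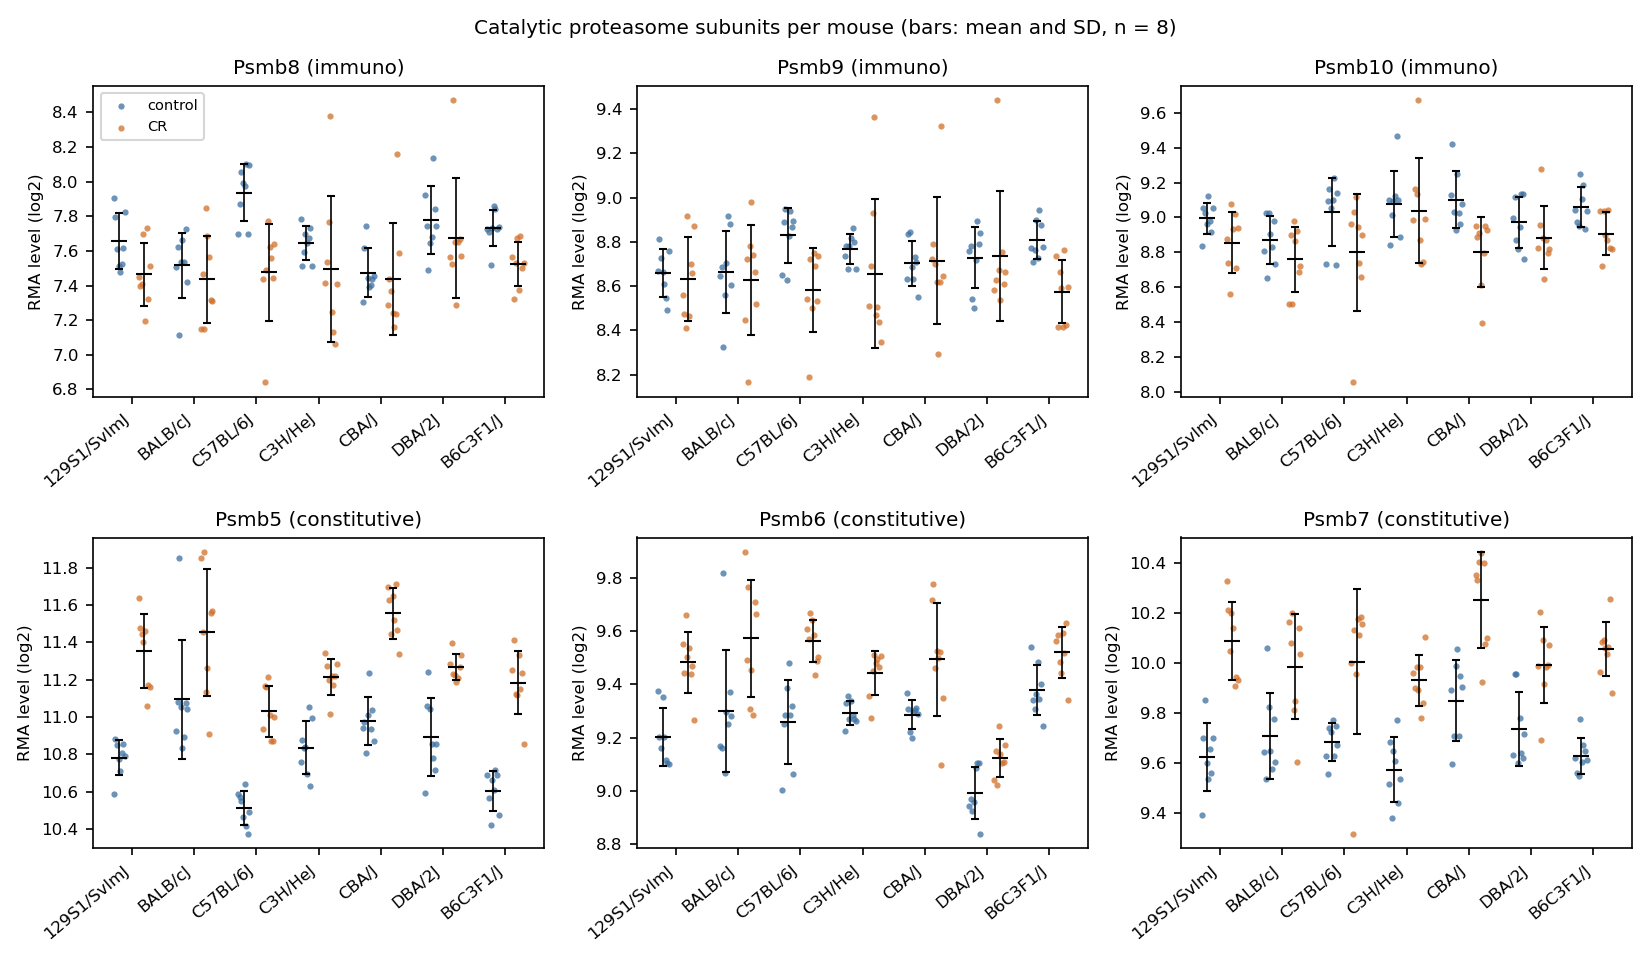
Level (y axis, log2 RMA signal) of the 3 immunosubunits, above, and their 3 constitutive counterparts, below, in each mouse of the 7 strains (x axis), control in blue and CR in orange, with the mean and SD of 8 mice. Psmb5 of CR mice sits above every control in C57BL/6J, 129S1/SvImJ, CBA/J and B6C3F1/J. The highest CR mouse in Psmb8 is at 8.38 in C3H/HeJ, 8.16 in CBA/J and 8.47 in DBA/2J, where the medians are 7.41, 7.33 and 7.61.

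Each immunosubunit was also set against its constitutive partner within the same mouse, as planned. Since the partners were higher on CR, a fall of the difference does not by itself show a fall of the immunosubunit. The difference of 2 probe sets has no meaning as a level, so only its change with diet was tested, by an exact permutation test in each strain and by permuting diet within strains for the mean. All 21 differences fell in sign, and 16 passed after adjustment over the 21 tests. The mean change was -0.66 ± 0.07 (SE over 7 strains) for Psmb8 minus Psmb5, -0.51 ± 0.05 for Psmb10 minus Psmb7 and -0.30 ± 0.05 for Psmb9 minus Psmb6, each negative in 7 of 7 strains, with a permutation p of 1e-05, the smallest that 100000 resamples can give.

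Psmb8 minus Psmb5 moved most in C57BL/6J, by -0.98 ± 0.13, from a control range of -2.89 to -2.32 (median -2.58) to a CR range of -4.33 to -3.31 (median -3.43). All 8 CR mice were below every control there, as they were in 129S1/SvImJ and B6C3F1/J, where the exact p was 0.00016 as well, the smallest that 8 against 8 mice can give. In BALB/cJ it was -0.44 ± 0.26 and did not pass (exact p = 0.122). Control replicate 3 was at -4.74 there, where the next control was at -3.62. Without that mouse, a choice made after seeing the data, the change was -0.60 ± 0.21 (exact p = 0.020, 0.026 adjusted over the 21 tests). CR replicates 1 (-4.70) and 3 (-4.74) of BALB/cJ were about as low and were kept. In DBA/2J Psmb8 minus Psmb5 changed by -0.48 ± 0.19, and by -0.59 ± 0.14 without CR replicate 3. Psmb10 minus Psmb7 was free of overlap in 129S1/SvImJ, CBA/J and B6C3F1/J and passed in all 7 strains, though not in DBA/2J once the arrays high in epididymis markers were left out. In BALB/cJ it gave -0.39 ± 0.16, with an exact p of 0.034 (0.044 adjusted over the 21 tests). Psmb9 minus Psmb6 passed in 129S1/SvImJ, C57BL/6J and B6C3F1/J, and not in the other 4 strains. In each of those 4 it passed once 1 mouse was left out, a choice made after seeing the data. It was then -0.43 ± 0.16 in BALB/cJ (exact p = 0.023), -0.35 ± 0.09 in C3H/HeJ (exact p = 0.0023), -0.34 ± 0.08 in CBA/J (exact p = 0.00078) and -0.24 ± 0.06 in DBA/2J (exact p = 0.0023). The mice left out were BALB/cJ control replicate 3, C3H/HeJ CR replicate 4, CBA/J CR replicate 7 and DBA/2J CR replicate 3. In 20 of the 21 pairs and strains the constitutive partner changed by more than the immunosubunit, the exception being Psmb9 and Psmb6 in B6C3F1/J. In DBA/2J Psmb8 changed by -0.10 ± 0.13 and Psmb5 by 0.37 ± 0.08, and without CR replicate 3 by -0.22 and 0.38.

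**Figure D3:**
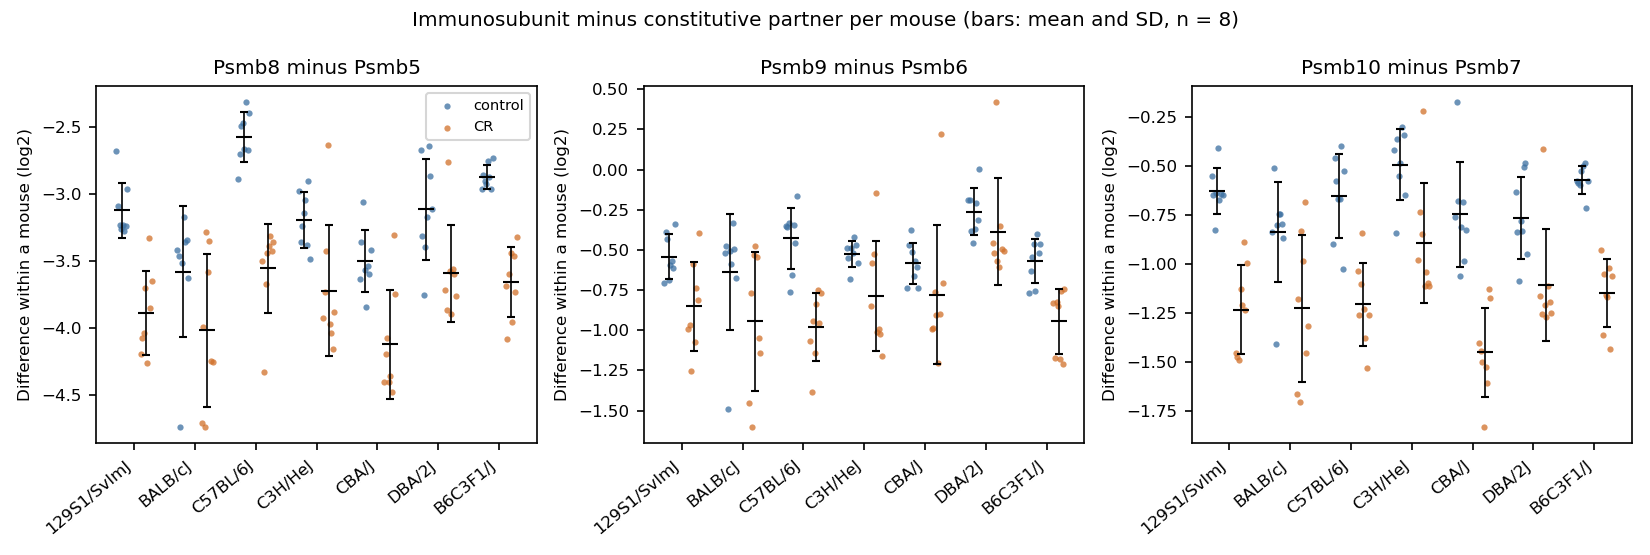
Difference between an immunosubunit and its constitutive partner within each mouse (y axis, log2), by strain (x axis), control in blue and CR in orange, with the mean and SD of 8 mice. CR means lie below control means in all 21 comparisons. The groups are apart for Psmb8 minus Psmb5 in 129S1/SvImJ, C57BL/6J and B6C3F1/J.

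Tap1 codes for a chain of the transporter. Its change in C57BL/6J was the widest of the 56 pairs of member and strain. There the controls ran from 8.55 to 9.12 (median 8.74) and CR mice from 7.86 to 8.52 (median 8.31), with no overlap, a change of -0.49 ± 0.10 (limma adjusted p = 0.0032). Groups free of overlap in that direction were found for 1.87% of genes in that strain. Without the arrays high in epididymis markers the change was -0.44 (limma adjusted p = 0.0027). In B6C3F1/J it changed by -0.16 ± 0.06 (limma adjusted p = 0.048). Single mice widened the CR groups elsewhere. In DBA/2J the CR mice ran from 7.87 to 9.56 with a median of 8.08, and the mouse at 9.56 was replicate 3, the one with the high T cell markers. Without it the change in DBA/2J was -0.32 (limma adjusted p = 0.108) in place of -0.13.

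Tap2, the other chain of the transporter, was higher in 1 strain. In 129S1/SvImJ controls ran from 7.96 to 8.39 (median 8.15) and CR mice from 8.30 to 8.61 (median 8.38), so that 4 CR mice were above every control, a change of 0.26 ± 0.07 (limma adjusted p = 0.0059). No other member was called higher in any strain, and 16.8% of genes were higher in 129S1/SvImJ. In CBA/J Tap2 changed by 0.17 ± 0.10 (adjusted p = 0.262), and by 0.26 (adjusted p = 0.030) without the arrays high in epididymis markers. In C57BL/6J it changed by -0.13 ± 0.07 (adjusted p = 0.281), and by -0.07 without CR replicate 2. The strain-by-diet F-test of Tap2 had an adjusted p of 0.075, and it passed after quantile normalization, with array weights and without the arrays high in epididymis markers, alone or with the array high in T cell markers. The mean change of Tap2 likewise passed in 5 of 11 alternatives, with values from 0.06 to 0.08.

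Tapbp was called lower in 4 strains. In B6C3F1/J controls ran from 10.86 to 11.09 (median 10.97) and CR mice from 10.52 to 10.73 (median 10.63), without overlap, a change of -0.33 ± 0.04 (limma adjusted p = 1.1e-05), and 5.69% of genes had such groups in that direction there. It was also lower in CBA/J (-0.26 ± 0.05, 7 of 8 CR mice below every control), C57BL/6J (-0.25 ± 0.08) and 129S1/SvImJ (-0.20 ± 0.06). The C57BL/6J call was lost without the arrays high in epididymis markers (-0.20, limma adjusted p = 0.069). In BALB/cJ the change was 0.01 ± 0.06. Its strain-by-diet F-test had an adjusted p of 0.090. Over the strains the adjusted p was 5.7e-11.

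B2m, at a mean of 12.94 over all arrays, was lower in CBA/J, where controls ran from 12.77 to 13.09 (median 13.03) and CR mice from 12.56 to 12.98 (median 12.76), a change of -0.21 ± 0.07 (limma adjusted p = 0.032), with 4 CR mice below every control. Without the arrays high in epididymis markers it was -0.15 there (limma adjusted p = 0.093). In B6C3F1/J 7 of 8 CR mice were below every control and the change was -0.11 ± 0.04 (limma adjusted p = 0.042). It was negative in all 7 strains, with an adjusted p of 7.1e-08 for the mean.

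The first shared class I probe set, which names H2-D1 first, lay at a control mean between 11.58 and 11.95 in 129S1/SvImJ, C57BL/6J, BALB/cJ, DBA/2J and B6C3F1/J, and at 9.57 in C3H/HeJ and 9.69 in CBA/J. C3H/HeJ and CBA/J carry the k haplotype of the H2 complex, the others b or d, or b with k in the hybrid. The hybrid mean was 11.64 and that of its C57BL/6J parent 11.88. Control strains differed there with an adjusted p of 5.7e-56 over all probe sets, of which 48.6% were called. Whether probes bind the k alleles less or the transcript is scarcer cannot be told apart. On CR this probe set changed by -0.17 ± 0.03 (adjusted p = 9.8e-06) and the second by -0.25 ± 0.04 (adjusted p = 7.4e-09), each negative in 7 of 7 strains, where 17.9% of all probe sets were lower. In B6C3F1/J the second ran from 11.32 to 11.60 in controls (median 11.42) and from 10.76 to 11.16 in CR mice (median 11.05), without overlap. It was called lower there, in 129S1/SvImJ and in CBA/J. The first was called lower in 129S1/SvImJ and B6C3F1/J, and its groups did not overlap in either. Such groups were found for 4.31% of genes in 129S1/SvImJ and 5.69% in B6C3F1/J. These shares are over the 19938 genes, which do not include the shared probe sets. The share of all probe sets called lower was 11.9% in B6C3F1/J, 10.7% in 129S1/SvImJ and 8.03% in CBA/J.

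**Figure D4:**
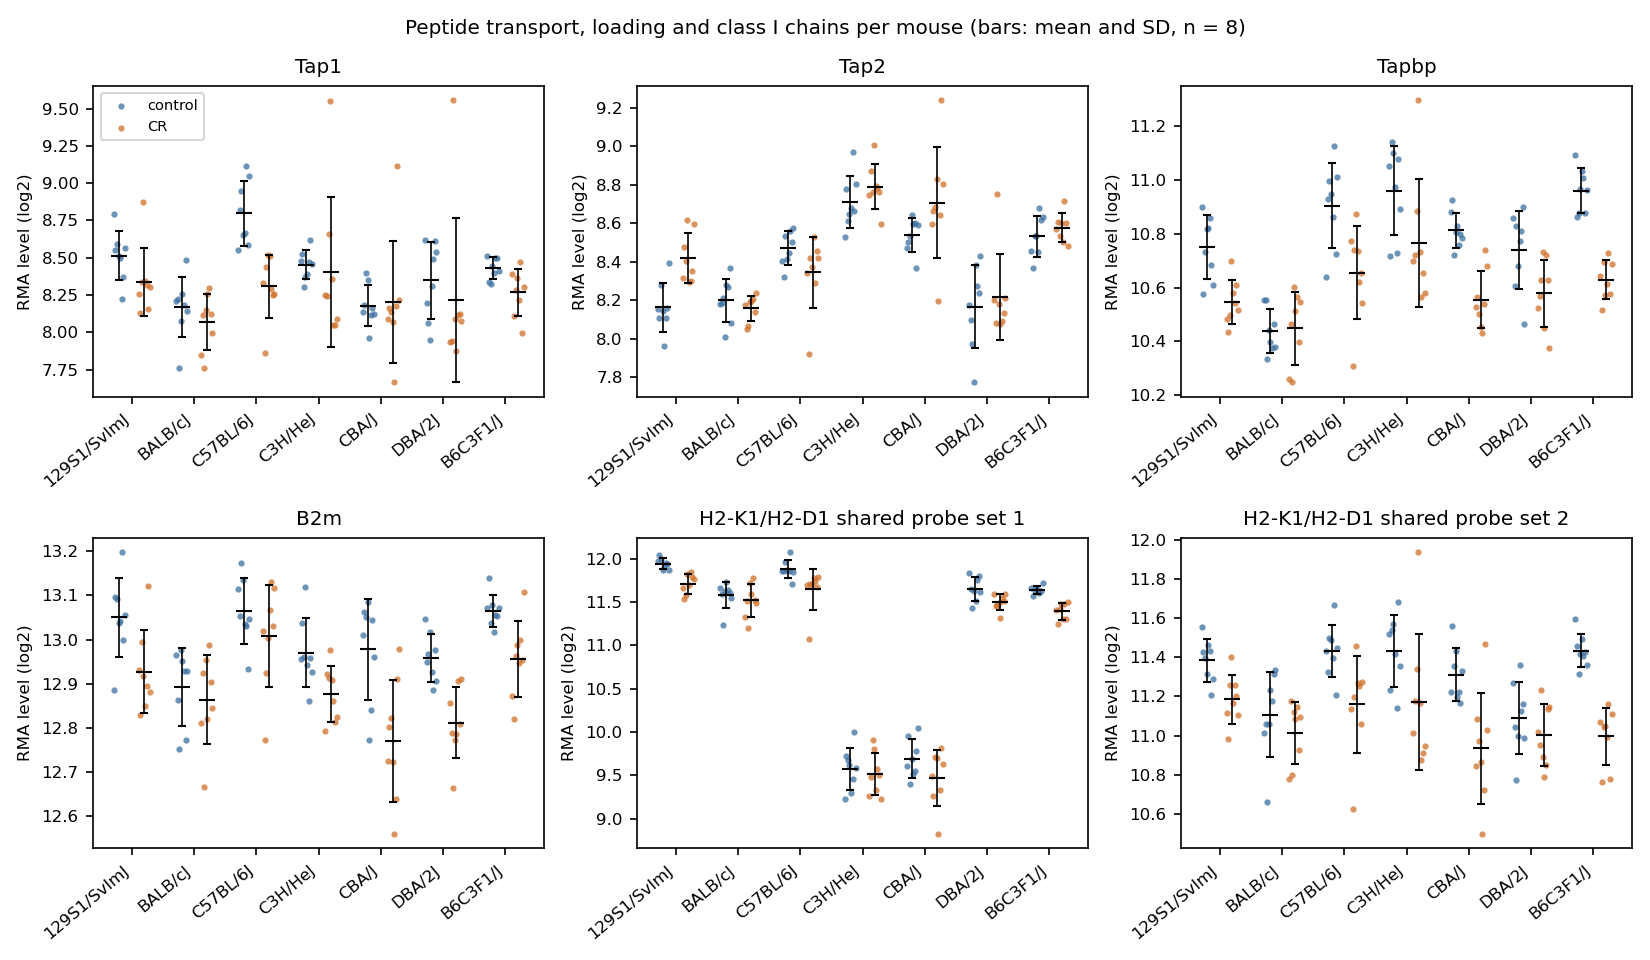
Level (y axis, log2 RMA signal) of Tap1, Tap2, Tapbp, B2m and the 2 probe sets shared by H2-K1 and H2-D1 in each mouse of the 7 strains (x axis), control in blue and CR in orange, with the mean and SD of 8 mice. Tap1 is apart between diets in C57BL/6J and Tapbp in B6C3F1/J. The first shared probe set is near 9.6 in C3H/HeJ and CBA/J controls and above 11.5 in the control means of the other strains.

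Nlrc5 was unlike the other members, since it had 19 probe sets of its own. The brightest, at a mean of 9.73, ran from 9.66 to 10.18 in C57BL/6J controls (median 9.87) and from 9.46 to 9.96 in CR mice (median 9.73), a change of -0.19 ± 0.08 (limma adjusted p = 0.121). In 129S1/SvImJ it ran from 9.30 to 9.68 in controls (median 9.53) and from 9.43 to 9.86 in CR mice (median 9.59), a change of 0.12 ± 0.07. No strain passed, and the groups overlapped in each.

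The remaining probe sets gave a clearer picture by strain, chosen for display after their values were seen. In C57BL/6J all 19 were negative, from -0.52 to -0.17, and 5 were called lower over all probe sets, of which 4.67% were. In 129S1/SvImJ all 19 were positive, from 0.03 to 0.25, and 2 were called higher (10.9% of all probe sets). In BALB/cJ 15 of 19 were negative, in CBA/J 11, in B6C3F1/J 8, in DBA/2J 5 and in C3H/HeJ 2, with none called. The mean of all 19 changed by -0.31 in C57BL/6J (limma adjusted p = 0.030) and by 0.14 in 129S1/SvImJ (limma adjusted p = 0.137). Over the strains the 19 changes lay between -0.10 and 0.05 and none was called, where 17.6% of all probe sets were higher. The strain-by-diet F-test passed for 4 of the 19, against 12.2% of all probe sets, and not for the brightest (adjusted p = 0.163 over all probe sets). Probe sets of 1 gene share their RNA and are not replicates.

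**Figure D5:**
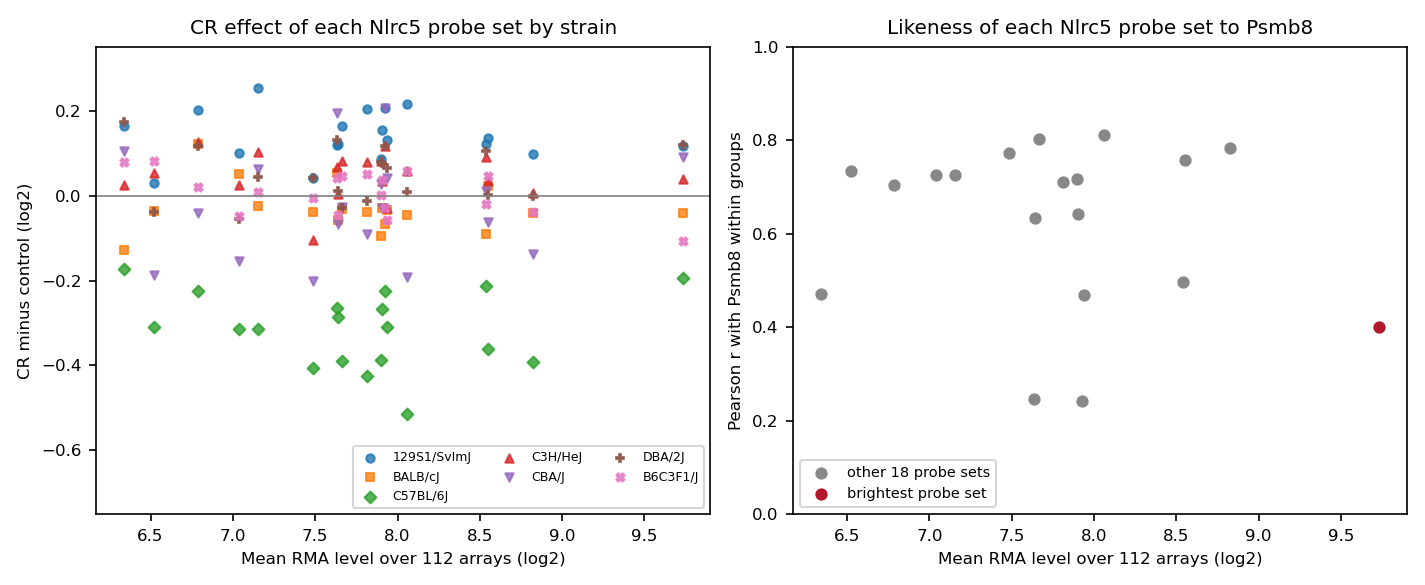
Left, difference between CR and control (y axis, log2) of the 19 Nlrc5 probe sets by strain (symbols), against their mean level over 112 arrays (x axis, log2). Right, Pearson correlation of each probe set with Psmb8 within groups (y axis) against the same level, the brightest in red. All 19 lie below 0 in C57BL/6J and above 0 in 129S1/SvImJ, and the brightest ranks 17 of 19 in likeness to Psmb8.

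By strain, the called members were Psmb8, Psmb9, Tap1, Tapbp and B2m in B6C3F1/J (all lower, background 16.4% of genes lower), Psmb8, Psmb9, Tap1 and Tapbp in C57BL/6J (lower, 7.31%), Psmb10, Tapbp and B2m in CBA/J (lower, 12.5%), and Tapbp lower (15.4%) with Tap2 higher in 129S1/SvImJ. None was called in C3H/HeJ, DBA/2J or BALB/cJ, where 6.87%, 0.396% and 0% of genes were lower. At an unadjusted p under 0.05 in limma the counts there were 0, 2 and 0 members, against 26.5%, 15.1% and 7.52% of genes. At an unadjusted p under 0.01, the level used in the methods, limma called 1 member (B2m) in DBA/2J, against 6.04% of genes, and 3 in B6C3F1/J, against 30.9%. Of the 56 pairs of member and strain, 43 were negative, 13 were called lower and 1 higher. In C3H/HeJ 1 mouse decided the count. Without CR replicate 4, whose Tap1 was 9.55 where the next was 8.66, Psmb8 (-0.28), Psmb9 (-0.21) and Tapbp (-0.27) were called lower. In 129S1/SvImJ, leaving out CR replicate 4 raised the calls from 2 to 4, adding Psmb8 and Tap1. In other strains calls were lost. The count fell from 4 to 2 in C57BL/6J without any 1 of 7 mice and from 5 to 3 in B6C3F1/J without any 1 of 7, and it ran from 2 to 4 in CBA/J. The F-test for a CR effect that differed between strains called 0 of 8 members, where 19% of genes were called and 3 members had an unadjusted p under 0.05 (Tap2, Tapbp and Nlrc5).

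Control mice of the 7 strains differed in 6 of the 8 members (limma F-test, adjusted p under 0.05), against 56.6% of all genes. Psmb9 and Psmb10 did not pass. Strain took 62.8% of the variance of Tap2, 36.6% of that of Tapbp and 2.45% of that of Psmb9. Tap2 fell into an upper group of C3H/HeJ (8.71), CBA/J (8.54), B6C3F1/J (8.53) and C57BL/6J (8.47) and a lower one of BALB/cJ (8.20), DBA/2J (8.17) and 129S1/SvImJ (8.16). The step between C57BL/6J and BALB/cJ had an adjusted p of 0.0043, and no other neighbours differed. The upper group was not level, since Tap2 of C57BL/6J minus C3H/HeJ was -0.24 ± 0.08 (limma adjusted p = 0.015, with 4265 genes called). Tapbp ran from 10.96 in B6C3F1/J to 10.44 in BALB/cJ, and its only step between neighbours that passed was from DBA/2J (10.74) to BALB/cJ (adjusted p = 0.00033). For Psmb8, Tap1, B2m and Nlrc5 no neighbours in the order differed beyond their spread, although C57BL/6J was highest in Psmb8 (7.94), Tap1 (8.80) and Nlrc5 (9.91). As for the first shared class I probe set, weaker binding of probes to an allele and a scarcer transcript cannot be told apart here.

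Strains that share an H2 haplotype were also compared, since Psmb8, Psmb9, Tap1, Tap2 and Tapbp lie in or beside that complex on chromosome 17. C57BL/6J and 129S1/SvImJ, both b, differed in Tap2, by 0.31 ± 0.08 (adjusted p = 0.0015), and in Nlrc5, by 0.40 ± 0.08 (adjusted p = 5.0e-05), with 19.3% of genes called. DBA/2J and BALB/cJ, both d, differed in Tapbp, by 0.30 ± 0.07 (21.1% of genes). C3H/HeJ and CBA/J, both k, did not pass in any member, with differences from -0.02 in Psmb10 to 0.27 in Tap1 (5.46% of genes). The hybrid B6C3F1/J did not pass against the mean of its parents in any member, the widest gap being -0.20 ± 0.12 in Tap1 (9.42% of genes).

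The rest of the proteasome followed the constitutive side. All 11 other 20S subunits were higher, from 0.19 in Psma5 to 0.37 in Psma6, with Psmb3 at 0.33, Psmb4 at 0.30 and Psma1 at 0.29. Over the strains 21.9% of all genes were higher. Within strains all 11 were called higher in B6C3F1/J (17.8% of genes), 129S1/SvImJ (16.8%) and C57BL/6J (9.39%). In CBA/J 10 were (8.68%) and in C3H/HeJ 9 (8.75%), and none was in DBA/2J (0.492%) or BALB/cJ (0%). Of 9 activators and assembly factors 6 were higher, led by the nuclear activator Psme4 (0.27), the chaperone subunit Psmg1 (0.20) and Pomp (0.19), which helps to build both kinds of particle. Psme1 and Psme2 form the PA28 cap, which interferon-gamma also induces. Psme2 was higher, by 0.12 ± 0.03 (limma adjusted p = 1.4e-05), and Psme1 changed by 0.05 ± 0.03 (adjusted p = 0.147). The part of interferon-gamma in these changes and in those of the immunosubunits was not tested.

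Other parts of the loading machine were lower in part. Over the strains 22% of all genes were lower and 21.9% higher. Of 5 genes 3 were lower: Erap1, which trims peptides in the endoplasmic reticulum (-0.20 ± 0.03), and the chaperones Calr (-0.15 ± 0.04) and Pdia3 (-0.13 ± 0.04). Within B6C3F1/J 4 of the 5 were lower (16.4% of genes) and 1 higher (17.8%), in 129S1/SvImJ 3 were lower (15.4%) and in CBA/J 1 (12.5%). None was called in the other strains, and in C57BL/6J their mean changed by 0.03. Canx changed by -0.02 ± 0.02, and Tapbpl, a relative of tapasin that edits peptides, was higher by 0.05 ± 0.02 (limma adjusted p = 0.048). Of 16 other class I and class I-like genes 10 were measured. H2-T24 (-0.29), H2-Q4 (-0.28), H2-M2 (-0.26), H2-T10 (-0.21) and H2-M3 (-0.13) were lower, of which H2-M2 and H2-T10 had mean levels below the median of all probe sets, and Mr1, which presents vitamin metabolites, was higher by 0.33 ± 0.03, as was H2-Q10 by 0.21. These means cover unlike strains, since H2-Q10 changed by 0.60 in C3H/HeJ but by -0.30 in 129S1/SvImJ (strain-by-diet adjusted p = 0.0068), Mr1 ran from -0.05 in DBA/2J to 0.63 in C57BL/6J (9.5e-06) and H2-M2 from -0.75 in B6C3F1/J to 0.05 in DBA/2J (0.0019). Class I genes are alike in sequence, so their probe sets may share signal.

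Interferon-gamma induces most members. For the counts over strains that follow, 22% of all genes were lower and 21.9% higher. Of 14 measured genes of its signalling 9 were lower and none higher, among them the receptor chain Ifngr1 (-0.20 ± 0.04), the factors Irf2 (-0.23 ± 0.03) and Irf1 (-0.18 ± 0.04), and Ciita, the class II counterpart of Nlrc5 (-0.30 ± 0.05). Ciita ran from -0.64 in B6C3F1/J to 0.05 in BALB/cJ (strain-by-diet adjusted p = 0.010). Ifng itself was dim, at a mean of 6.00, and changed by -0.02 ± 0.03. Of 7 measured target genes outside the set 4 were lower, Cxcl9 (-0.44 ± 0.07), Gbp4 (-0.33 ± 0.09), Irgm1 (-0.19 ± 0.05) and Gbp7 (-0.14 ± 0.06), and Gbp3 was higher (0.16 ± 0.06). By strain, 5 of the 7 were lower in C57BL/6J (7.31% of genes), 2 in 129S1/SvImJ (15.4%) and 0 in each of the other 5 strains. In 129S1/SvImJ and in B6C3F1/J 1 target was higher, against 16.8% and 17.8% of genes. Gbp4 changed by -1.45 in C57BL/6J, 0.00 in C3H/HeJ and 0.09 in CBA/J (strain-by-diet adjusted p = 0.0027), and Cxcl9 by -1.27 in C57BL/6J and -0.05 in CBA/J (0.0013).

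Members varied together between mice of the same group. With each of the 14 group means taken away, Pearson's r over 112 arrays was 0.85 for Psmb8 with Tap1, 0.83 for Psmb8 with Psmb9 and 0.86 for Psmb9 with Tap1, the pair with the shared promoter window printed above. It was 0.73 for Psmb8 with Psmb10, 0.57 with Tap2 and 0.60 with Tapbp. B2m was looser, at 0.29 with Psmb8. With their constitutive partners, r was -0.43 for Psmb8 with Psmb5, -0.31 for Psmb9 with Psmb6 and 0.12 for Psmb10 with Psmb7. Psmb5 was about as negative with B2m (-0.42) and Psmb9 (-0.41), which are not its partners. The 5 genes most like Psmb8 were Tap1, Psmb9, Parp14 (0.78), Gbp7 (0.77) and Gm8995 (0.77). The 5 most like the brightest Nlrc5 probe set were Myo18b (0.82), Col9a1, Lmx1b, Col7a1 and A830031A19Rik (0.80), none of them a member. That probe set had an r of 0.40 with Psmb8, whereas the other 18 ran from 0.24 to 0.81 and the mean of all 19 had 0.79. Without the arrays high in epididymis or T cell markers, Psmb8 had an r of 0.82 with Tap1, 0.78 with Psmb9, 0.40 with Tap2 and 0.24 with the brightest Nlrc5 probe set. Psmb9 with Tap1 was then at 0.80, below Psmb8 with Tap1. The points share their arrays, and these values are descriptions.

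Markers of other cell types moved too. Their counts over strains stand beside 22% of all genes lower and 21.9% higher. All 10 macrophage markers were lower on CR, from -0.24 in Fcgr1 to -1.45 in Itgax, and Fcgr1 alone had a mean level below the median of all probe sets. Their mean level ran from 8.06 to 10.24 over control mice and from 7.56 to 9.33 over CR mice. It fell by 1.45 in CBA/J, 1.39 in B6C3F1/J and 0.06 in BALB/cJ. Within groups it went with Tapbp (r = 0.70) and Psmb10 (0.59) more than with Psmb8 (0.45), Tap1 (0.34), B2m (0.25) or Tap2 (0.02). Of 6 dendritic cell markers 4 were lower, led by Clec9a (-0.52 ± 0.06), and Flt3, Xcr1 and Clec9a had mean levels below the median of all probe sets. Their mean ran from 6.13 to 7.25 over control mice and from 6.22 to 7.54 over CR mice, and had an r of 0.70 with Tap1 and 0.66 with Psmb8, or 0.57 and 0.59 without DBA/2J CR replicate 3. Of 8 T cell markers 1 was lower, Cd2 (-0.21 ± 0.06), and the T cell mean, from 6.10 to 7.14 over control mice and from 6.16 to 8.66 over CR mice, had an r of 0.62 with Tap1, which was 0.39 without DBA/2J CR replicate 3. No NK cell marker of 6 and no B cell marker of 5 was lower, and 1 NK cell marker was higher. The NK cell mean had an r of 0.64 with Tap1 and 0.47 with Psmb8, or 0.54 and 0.38 without DBA/2J CR replicate 3. Without the arrays high in epididymis or T cell markers these were 0.62 and 0.52, and the T cell mean then had 0.34 with Tap1. Of the NK cell markers only Nkg7 had a mean level above the median of all probe sets, and of the B cell markers only Cd79b. Of the T cell markers only Cd3e and Cd2 did, and a fall of the dimmer ones may not show. Of 8 adipocyte markers 3 were lower, Lep (-0.51 ± 0.07), Cidec (-0.20 ± 0.03) and Adipoq (-0.17 ± 0.03), with a mean from 12.40 to 12.79 over control mice and from 11.37 to 12.73 over CR mice. Of 8 endothelial markers 3 were lower, Tek (-0.24 ± 0.04), Cdh5 (-0.16 ± 0.04) and Pecam1 (-0.13 ± 0.04), with a mean from 9.58 to 10.32 over control mice and from 8.68 to 10.18 over CR mice. By strain, 5 endothelial markers were higher in B6C3F1/J (17.8% of genes), where their mean rose by 0.20. In 129S1/SvImJ 3 were lower (15.4%) and 1 higher (16.8%), in C57BL/6J 1 was lower (7.31%), and none was called elsewhere. The adipocyte mean had an r of 0.54 with Psmb10 and 0.47 with B2m, and the endothelial mean 0.45 and 0.35. Without the arrays high in epididymis or T cell markers these were 0.38 and 0.34 for adipocyte markers and 0.20 and 0.09 for endothelial markers. The part of these cells in the members' changes was not tested.

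Without the 8 arrays high in epididymis markers and the array high in T cell markers, an alternative added after seeing the data, the same 6 members were lower over the strains, Tap2 was higher, and 17 of the 21 within-mouse differences passed.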

How the data were processed

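RNA of epididymal white fat from 112 mice was hybridised by the authors to Affymetrix Mouse Gene 1.0 ST arrays, and the deposited log2 values are gene-level RMA-Sketch signals from Affymetrix Expression Console, version not given in the sources used here. RMA corrects background, brings arrays to a common distribution and so can hide a shift of all genes. Of 35556 probe sets, 21789 carry 1 symbol in the platform annotation, 1621 several and 12146 none here, which gave 19938 genes at 1 probe set (the brightest) each. Diet and strain came from the labels, and precision is limited by the 8 arrays of a group. Linear models (limma 3.58.1, R 4.3.3) used 16 arrays in each strain and 14 groups over all arrays, with Benjamini-Hochberg adjustment over all genes. Within-mouse differences were tested by exact permutation in Python 3.11.15, with 100000 resamples over strains. Scripts were tested on simulated data. The methods' own t-test, normalization, array weights, probe set choice and left-out arrays were tried as alternatives. Genes named are all members and, of each other list, up to 4 past the threshold with the widest change, or its count and range; further genes were picked with their values in view. The members and lists were chosen with earlier results of these data known.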

Additional observations from a re-analysis of the deposited data

Results flagged for a closer look

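Of 224 groups of 8 mice checked over 11 genes, the 2 shared class I probe sets and the 3 within-mouse differences, 34 had 1 mouse whose gap to the nearest other was past Dixon's critical value; chance flags about 1 in 20. Most came from a few mice.

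DBA/2J CR replicate 3 was highest in Tap1 (9.56, next 8.13), Psmb9 (9.44), Psmb8 (8.47), Tap2 (8.75), Psmb10 minus Psmb7 (-0.41), Psmb8 minus Psmb5 (-2.76) and Psmb9 minus Psmb6 (0.42). Its T cell markers averaged 8.66 and its macrophage markers 8.38. The highest B cell marker mean of its group was 9.62. The r of Tap1 with B cell markers was 0.29 over all arrays and -0.02 without DBA/2J CR replicate 3. C57BL/6J CR replicate 2 was lowest in Psmb8 (6.84), Psmb9 (8.19), Psmb10 (8.06), Tap1 (7.86), Tap2 (7.92), Psmb7 (9.32), the first shared class I probe set (11.08) and Psmb8 minus Psmb5 (-4.33), and it is among the arrays high in epididymis markers. C3H/HeJ CR replicate 4 was highest in Tap1 (9.55), Psmb10 (9.67), Tapbp (11.30), the second shared class I probe set (11.94) and Psmb10 minus Psmb7 (-0.22). CBA/J CR replicate 7 was highest in Tap1 (9.12), Psmb8 (8.16), Nlrc5 (10.24) and Psmb9 minus Psmb6 (0.22).

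BALB/cJ control replicate 3 was highest in Psmb5 (11.85, next 11.08) and Psmb6 (9.82), and lowest in the first shared class I probe set (11.23), Psmb8 minus Psmb5 (-4.74), Psmb9 minus Psmb6 (-1.49) and Psmb10 minus Psmb7 (-1.41). Its Psmb8 minus Psmb5 was as low as the lowest BALB/cJ CR mouse (-4.74). Single values stood apart in Tap1 of 129S1/SvImJ CR replicate 4 (8.87), Psmb10 of C3H/HeJ control replicate 6 (9.47), Psmb8 of B6C3F1/J control replicate 3 (7.52) and Psmb10 minus Psmb7 of CBA/J control replicate 2 (-0.18).

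The CR effect differed between strains, by the F-test of strain and diet, in 4 Nlrc5 probe sets that were not the brightest. The adjusted p was 0.043 for probe set 10574149, 0.040 for 10574141, 0.024 for 10574153 and 0.024 for 10574157.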

How the results depend on the processing

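The number of members called over the strains was 5 to 7 in every alternative run. Psmb8, Psmb10, Tap1, Tapbp and B2m were lower in each of them, and Psmb9 in all but quantile normalization, centring and leaving out the arrays high in epididymis markers. The within-mouse differences kept their sign and call over the strains, and 15 to 18 of the 21 tests within strains passed, with 16 to 18 when 1 of 5 arrays that stood apart was left out.

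Counts within strains moved more. In DBA/2J 1 member (B2m) was called by the methods' t-test and by limma at an unadjusted p under 0.01, in 1 model of all arrays and with array weights, against 0. In C3H/HeJ 1 was called in 1 model (Tapbp), after quantile normalization (B2m) and with array weights (Tapbp), and 3 without CR replicate 4. In B6C3F1/J 3 were called by limma at an unadjusted p under 0.01 and after centring, and 1 in 1 model, against 5. In C57BL/6J 2 were called after centring, against 4. The F-test between strains called 1 member (Tap2) after quantile normalization and without the arrays high in epididymis markers, alone or with the array high in T cell markers, and 2 (Tap2 and Tapbp) with array weights, against 0. The causes were not tested. Leaving out 1 array at a time gave 2 to 4 members in 129S1/SvImJ, 2 to 4 in C57BL/6J, 2 to 4 in CBA/J, 3 to 6 in B6C3F1/J and 0 in BALB/cJ and DBA/2J. The count fell to 2 in C57BL/6J without any of control replicates 2, 3, 5, 6 and 8 or CR replicates 1 and 7, and to 3 in B6C3F1/J without any of control replicates 1, 4, 6 and 8 or CR replicates 2, 5 and 7. The leave-one-out fits of 129S1/SvImJ, C57BL/6J, CBA/J and B6C3F1/J, that without C3H/HeJ CR replicate 4 and those without the T cell array or 1 of the 5 arrays that stood apart were chosen after seeing the data.

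With the replicate number as a block, 2 members were called in C57BL/6J and 3 in B6C3F1/J, and the within-mouse differences over strains stayed at -0.66, -0.30 and -0.51. The numbers do not pair the mice: of 56 same-numbered pairs 18 had a correlation of deviations over 0.1, with a median of 0.026, and in 8 the own number was the best match. Of the single-gene values under all alternatives 1826 kept their side of the threshold, 47 passed only there and 118 failed only there, with none reversed. Signal over background limits the dim genes, and shared class I probe sets do not separate H2-K1 from H2-D1.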
